A study of Rattus norvegicus with 12 samples.

Results

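The genes described here load peptides onto MHC class I molecules, make those peptides or share the class I light chain: B2m, Tap1, Tap2, Tapbp, Psmb8, Psmb9, Psmb10, Psme1, Psme2 and Fcgrt. They were chosen by name, as every non-control probe whose gene name in the array files, or whose current symbol, is 1 of these 10. The list was chosen with earlier results of these data known. That gave 13 of the 41012 probes of the array, and 10 of the 14112 named genes tested. B2m had 4 probes and each of the other 9 genes had 1. Each of the 13 probes gave a signal well above background on all 12 arrays, so all 10 genes were tested.

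RNA came from micropunches of the rostral ventrolateral medulla (RVLM), a part of the brainstem that sets sympathetic tone and so blood pressure, in male F344 rats, an inbred strain. The young animals were 3 months old, the middle-aged animals 12 months and the aged animals 24 months, with 3 animals a group, which the labels call biological replicates. A punch holds every cell type of the region, so fewer cells of a type and less RNA per cell cannot be told apart. Replicate 3 of each age was hybridised to a pair of arrays, which were averaged, so 12 one-colour arrays gave 9 animals.

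The arrays were alike in quality and sat on 3 slides that were partly confounded with age. Between 73.5% and 77.1% of spots were well above background, 0 were saturated, and the number of animals, 3 a group, limits the precision. For the 10 genes, both arrays of an animal differed by a median of 0.04 and at most 0.18 (Tap1, young replicate 3) on the log2 scale. Slide 1 held 3 young animals and 1 middle-aged animal, slide 2 held 2 middle-aged and 2 aged animals, and slide 3 held replicate 3 of every age. On the second principal component over all genes, 1 animal of each age stood apart from the rest (24.32 for young replicate 2, 16.08 for middle-aged replicate 3, 26.52 for aged replicate 3, others -18.99 to 3.5). Among the markers of RVLM neurons, 7 of 9 were measured above background, including the catecholamine enzymes Th and Dbh, and Slc6a2 was not well above background.

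Class I molecules show fragments of a cell's own proteins on its surface, where cytotoxic T cells read them. Proteasomes cut the proteins, and under interferon the catalytic subunits Psmb8, Psmb9 and Psmb10 replace the constitutive Psmb5, Psmb6 and Psmb7 to form the immunoproteasome, whose activating cap is built from Psme1 and Psme2. The transporter made of Tap1 and Tap2 pumps the fragments into the endoplasmic reticulum, tapasin (Tapbp) holds the empty heavy chain beside it, and B2m is the light chain that every class I heavy chain needs. Fcgrt is the class I-like heavy chain of the neonatal Fc receptor, which also pairs with B2m but carries IgG and albumin rather than peptides. In the brain, microglia and vessel cells are known for class I, while most neurons carry little of it.

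5 of the 10 genes (Tap1, Tap2, Tapbp, Psmb8 and Psmb9) lie on chromosome 20, which carries the rat MHC, in the coordinates of the array files (rat build rn3), where the probes of Tap2, Psmb8, Tap1 and Psmb9 fall within 35654 bases. The first 30 of the 60 bases of the probes behind the 4 genes that passed the test below are shown with their positions, because the results rest on them; whether a probe lies in coding sequence or a UTR was not analysed here. The B2m probe spans 1486 bases of genome, more than its own length, and so crosses an intron.
B2m, chr3:108836592-108838077, plus strand: ggagcccaaaaccgtcacctgggaccgaga
Tap2, chr20:4770974-4771033, minus strand: tgctcaccggctgcacacggttcagaatgc
Psmb8, chr20:4788207-4788266, minus strand: cttacctgcttggaactatgtctggttgtg
Psmb9, chr20:4806568-4806627, plus strand: acagctgatggtgtggaccatcgcgtcatc
The other probes lie at chr20:4793054-4794189 (Tap1), chr20:5111939-5112109 (Tapbp), chr19:35782592-35782651 (Psmb10), chr15:33730266-33730552 (Psme1), chr15:33739894-33740973 (Psme2) and chr1:95646564-95646623 (Fcgrt).

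Aged against young animals asked what differs over the widest age gap. Psmb8, Psmb9, Tap2 and B2m rose, by 1.45-fold (B2m) to 1.7-fold (Tap2 and Psmb9), and 0 of the 10 genes fell. The other 6 did not pass. A gene passed when its limma p, adjusted by the Benjamini-Hochberg method over all 25445 items, was under 0.05. Levels are log2 signals relative to the array's 75th percentile, and differences are log2 differences ± their standard error (SE) from limma, for 3 animals a group. By this rule 1.57% of all items were higher and 0.472% lower in the aged animals, against 4 and 0 of the 10 genes. Because the 10 genes were chosen with earlier results of these data known, the shares here and below are no test of the set. The median difference of the 10 genes was 0.29, and that of all items was 0.033.

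**Figure D1:**
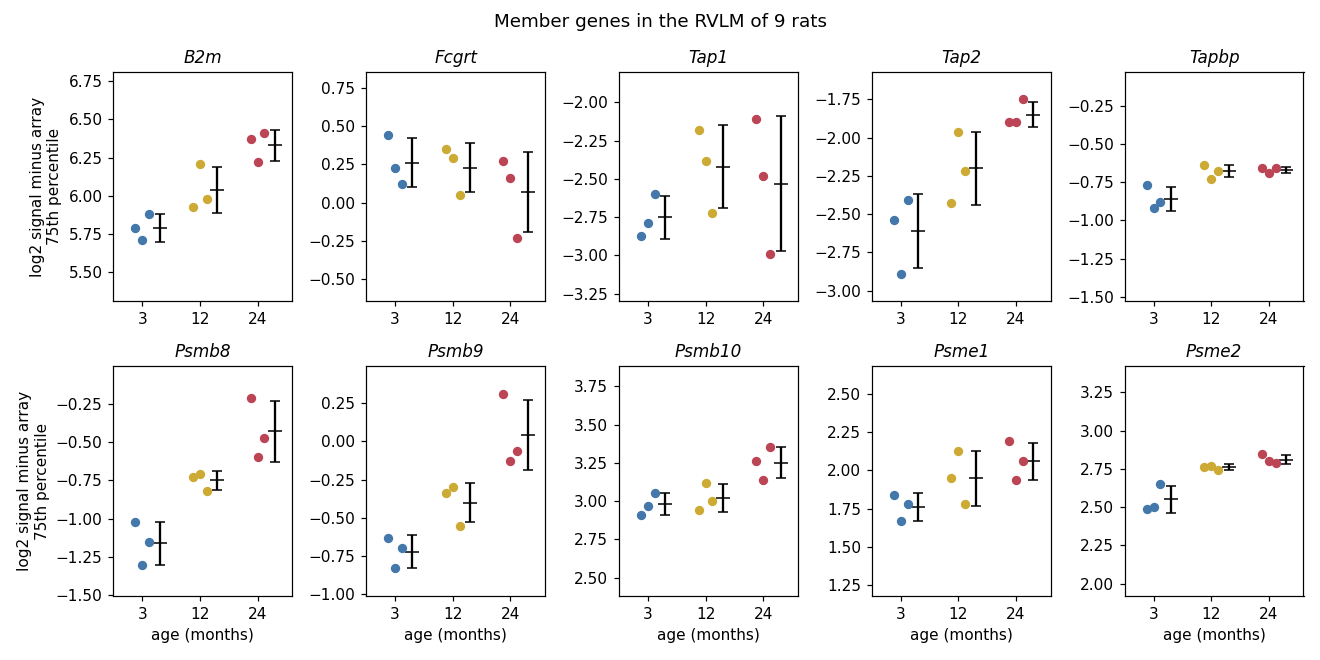
Level of each of the 10 genes (log2 signal minus the array's 75th percentile) in each of 9 animals, by age in months; points are replicates 1, 2 and 3 from left to right, and the dash and bar beside them are the mean and SD (n = 3). Every panel spans the same number of log2 units around its own centre. In B2m, Psmb8, Psmb9 and Psme2 the 3 ages do not overlap, but in B2m and Psme2 the middle-aged and aged animals nearly meet. In Tap1 aged replicate 3, at -2.99, lies below every young animal.

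Psmb8, which gives the immunoproteasome its chymotrypsin-like site, was at -1.02, -1.3 and -1.15 in young replicates 1 to 3, at -0.73, -0.71 and -0.82 in the middle-aged animals, and at -0.21, -0.6 and -0.47 in the aged. Each age lay above the one before it with no overlap, and aged replicate 1 was the highest animal. The rise from young to aged was 0.73 ± 0.11 (1.65-fold, limma adjusted p = 0.0162, higher in 3 of 3 aged animals). On slide 3, the only slide with both ages, Psmb8 differed by 0.66 between 1 aged and 1 young animal, and with slide as a block by 0.72 ± 0.13 (limma adjusted p = 0.035). The call was lost without young replicate 2 (adjusted p = 0.0637) or young replicate 3 (adjusted p = 0.0641) and in a fit of the young and aged animals alone (adjusted p = 0.057).

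Psmb9, another immunoproteasome subunit, was at -0.63, -0.83 and -0.7 in the young animals, at -0.34, -0.3 and -0.55 in the middle-aged, and at 0.31, -0.13 and -0.06 in the aged. The groups again did not overlap, and aged replicate 1 stood above the other aged animals. From young to aged Psmb9 rose by 0.76 ± 0.13 (1.7-fold, limma adjusted p = 0.0213). With slide as a block the difference was 0.81 ± 0.15 (limma adjusted p = 0.0363), and on slide 3 it was 0.66. Leaving out young replicate 2 or 3 ended the call (adjusted p = 0.0872 and 0.0765), as did keeping dim probes (0.0588) or fitting the young and aged animals alone (0.0553).

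Psmb10, the remaining immunoproteasome subunit, was at 2.91, 2.97 and 3.05 in the young animals, 2.94, 3.12 and 3.0 in the middle-aged and 3.26, 3.14 and 3.35 in the aged. Of the middle-aged animals 2 lay within the young range and replicate 2 above it, and all 3 aged animals lay above both groups. The difference of aged from young was 0.27 ± 0.08 (1.2-fold) and did not pass (limma adjusted p = 0.184). Blocked by slide it was 0.2 ± 0.11, and slide 3 alone gave 0.3.

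The cap subunits showed small differences that did not pass. Psme2 was at 2.49, 2.5 and 2.65 in the young animals, 2.76, 2.77 and 2.74 in the middle-aged and 2.85, 2.8 and 2.79 in the aged. All older animals lay above all young ones, and most of the distance was between young and middle-aged. The difference of aged from young was 0.27 ± 0.07 (limma adjusted p = 0.109). Psme1 was at 1.84, 1.67 and 1.78 in the young animals and 2.19, 1.94 and 2.06 in the aged, a difference of 0.3 ± 0.11 (limma adjusted p = 0.246). Its middle-aged values of 1.95, 2.13 and 1.78 overlapped both other groups.

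To set each immunoproteasome subunit against the constitutive subunit it replaces, the log2 levels of the pair were subtracted within each animal and the young mean was set to 0, so that only the change with age is read. Psmb8 minus Psmb5 was 0.2, -0.16 and -0.04 in the young animals, 0.4, 0.22 and 0.27 in the middle-aged and 0.96, 0.56 and 0.55 in the aged. Every middle-aged and aged animal lay above every young one. The aged exceeded the young by 0.69 (exact two-sided permutation p = 0.1, the smallest that 3 against 3 animals allow). Psmb9 minus Psmb6 was 0.19, -0.13 and -0.06 in the young animals and 0.9, 0.5 and 0.43 in the aged, a difference of 0.61 (exact p = 0.1), with middle-aged values of 0.23, 0.28 and 0.0. Psmb10 minus Psmb7 was -0.06, -0.13 and 0.19 in the young animals and 0.4, 0.26 and 0.22 in the aged, a difference of 0.29 (exact p = 0.1), which became 0.12 when blocked by slide and 0.0 on slide 3. Psmb8 minus Psmb5 was 0.67 with the block and 0.56 on slide 3, and Psmb9 minus Psmb6 0.69 and 0.51. These 3 tests together cannot pass 0.05 after any adjustment, since none can alone.

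The constitutive partners had small differences between aged and young animals. Psmb5 differed by 0.04 ± 0.08, Psmb6 by 0.15 ± 0.07 and Psmb7 by -0.02 ± 0.1, and none passed (limma adjusted p = 0.872, 0.372 and 0.933). The signs of Psmb5 and Psmb7 changed under other scalings: quantile normalization gave -0.06 for Psmb5, and slide as a block gave 0.09 for Psmb7. Over the whole list of proteasome core, cap and assembly genes, 20 of 22 were tested, 0 rose and 0 fell by limma, also at an unadjusted p under 0.05 (0 genes), and their differences ran from -0.08 to 0.15 with a median of 0.06.

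**Figure D2:**
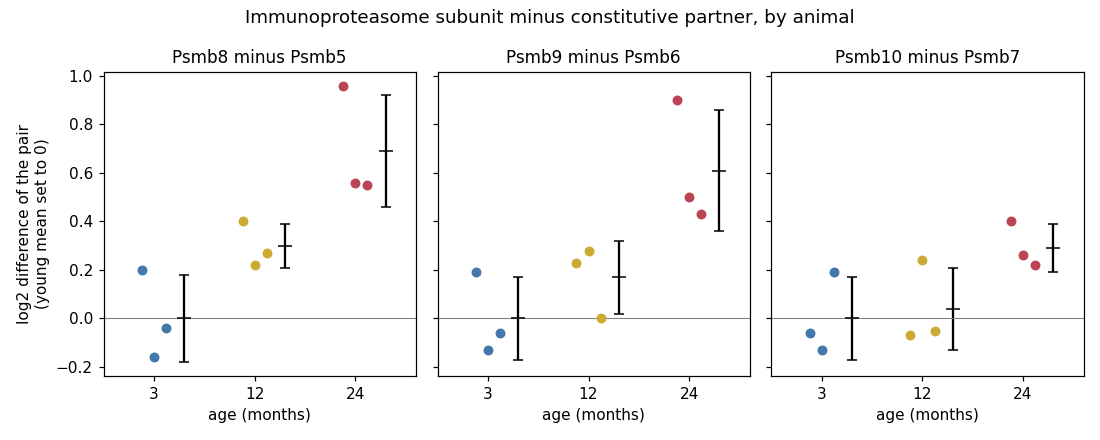
Log2 level of each immunoproteasome subunit minus that of its constitutive partner, by animal and age in months, with the mean of the young animals set to 0; the dash and bar are the mean and SD (n = 3). All 3 aged animals lie above all 3 young animals in each pair, by a mean of 0.69, 0.61 and 0.29.

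Tap2 and Tap1 encode the chains of one transporter and differed in their spread. Tap2 was at -2.54, -2.89 and -2.41 in the young animals, at -2.43, -1.96 and -2.22 in the middle-aged and at -1.9, -1.9 and -1.75 in the aged. The aged animals lay above all others, and middle-aged replicate 1 lay within the young range. Tap2 rose from young to aged by 0.76 ± 0.15 (1.7-fold, limma adjusted p = 0.0401). With slide as a block it was 0.65 ± 0.15 and did not pass (limma adjusted p = 0.0834), and on slide 3 it was 0.62. Centring on the median (0.72, adjusted p = 0.0519), the series matrix values (0.0613), a fit of the young and aged animals alone (0.0553), keeping dim probes (adjusted p = 0.0974) and leaving out any 1 young or aged animal or middle-aged replicate 3 also ended the call, with a highest adjusted p of 0.126, without aged replicate 3.

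Tap1 was at -2.87, -2.79 and -2.6 in the young animals, -2.18, -2.38 and -2.72 in the middle-aged and -2.11, -2.48 and -2.99 in the aged. The groups overlapped: 2 aged animals lay above all young animals and the other lay below them all. The difference of 0.23 ± 0.22 did not pass (limma adjusted p = 0.665). It was 0.46 without aged replicate 3, 0.02 without aged replicate 1, 0.07 ± 0.25 when blocked by slide and -0.48 on slide 3, which holds aged replicate 3 as its aged animal. Whether the changes of Tap1 and Tap2 differ from each other was not tested.

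Tapasin (Tapbp) was at -0.77, -0.92 and -0.88 in the young animals, -0.64, -0.73 and -0.68 in the middle-aged and -0.66, -0.69 and -0.66 in the aged. All 6 older animals lay above the young, and the middle-aged and aged animals shared a range. The difference of aged from young was 0.19 ± 0.07 (limma adjusted p = 0.246), and that of aged from middle-aged was 0.01 ± 0.07, whose sign turned when arrays were centred on the median (-0.04).

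B2m, the light chain, was at 5.79, 5.71 and 5.88 in the young animals, 5.93, 6.21 and 5.98 in the middle-aged and 6.37, 6.22 and 6.41 in the aged on its brightest probe. The ages did not overlap, although middle-aged replicate 2 came within reach of aged replicate 2. B2m rose by 0.54 ± 0.1 (1.45-fold, limma adjusted p = 0.0292). It was 0.5 on slide 3. With slide as a block it was 0.45 ± 0.1 and did not pass (limma adjusted p = 0.0797), nor did it with normexp background correction (0.54, adjusted p = 0.0523), with dim probes kept (0.0765), without any 1 young or aged animal, or without middle-aged replicate 3 (highest adjusted p = 0.112, without young replicate 2).

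The 4 B2m probes moved the same way. The second probe of the RefSeq transcript, printed 10 times on each array, went from 4.77, 4.75 and 4.9 in the young animals to 5.45, 5.29 and 5.48 in the aged, a difference of 0.6 ± 0.09 (limma adjusted p = 0.0117 with every probe as its own item). Both remaining probes were designed on an expressed sequence tag and lie farther along chromosome 3, at chr3:108839244-108839302 and chr3:108839368-108839427. They differed by 0.41 ± 0.08 (adjusted p = 0.0483) and 0.46 ± 0.1 (adjusted p = 0.054), so 3 of the 4 probes passed. In each of the 4 probes every aged animal lay above every young one, but on both tag probes the aged and middle-aged animals overlapped. On the first the aged values were 4.37, 4.16 and 4.21 and the middle-aged 4.13, 4.23 and 4.08, and on the second they were 5.96, 5.87 and 5.86 against 5.67, 5.87 and 5.63.

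Fcgrt had a lower mean in the aged animals. It was at 0.44, 0.23 and 0.12 in the young, 0.35, 0.29 and 0.05 in the middle-aged and 0.27, 0.16 and -0.23 in the aged. The groups overlapped, and aged replicate 3 was the lowest animal. The difference of aged from young was -0.2 ± 0.15 and did not pass (limma adjusted p = 0.565), and without aged replicate 3 it was -0.05.

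**Figure D3:**
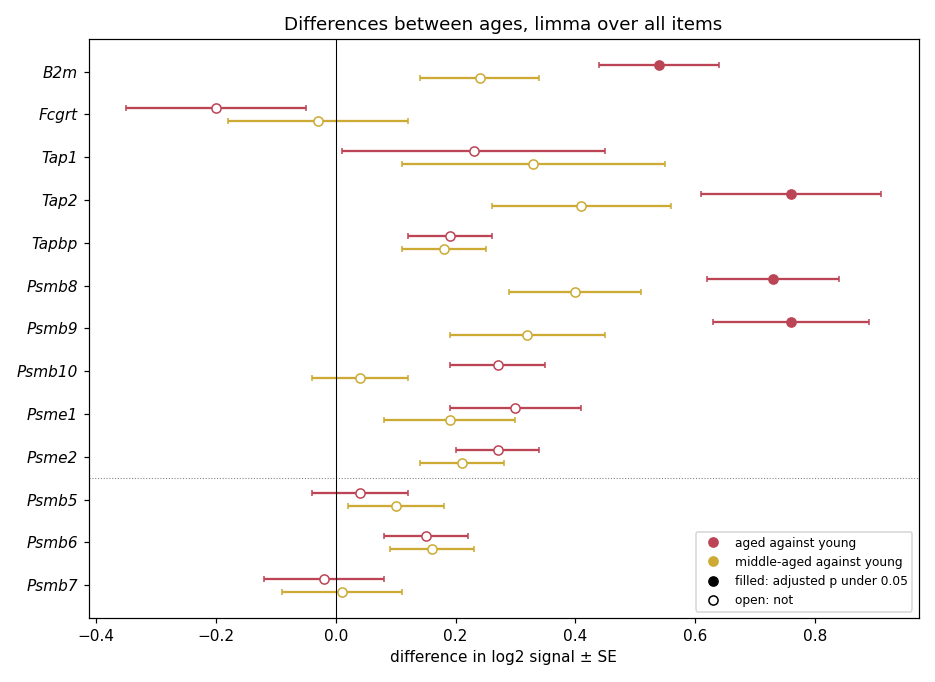
Difference in log2 signal from the young animals, ± the limma SE (n = 3 a group), for the 10 genes and, below the dotted line, the 3 constitutive proteasome subunits; red is aged, yellow is middle-aged, and filled points have an adjusted p under 0.05. Only B2m, Tap2, Psmb8 and Psmb9 have filled points, all for aged against young animals, at 0.54 to 0.76.

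Read as counts, 8 of the 10 genes (all but Tap1 and Fcgrt) had every aged animal above every young one, which held for 14.0% of all items. The same 8 had an unadjusted p under 0.05 and a higher mean, as did 10.3% of all items. With the young mean of each gene set to 0, the median over the 10 genes ran from -0.07 to 0.08 among young, from 0.18 to 0.37 among middle-aged and from 0.27 to 0.5 among aged animals. Aged replicate 1 was the highest and young replicate 2 the lowest.

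Middle-aged against young animals asked whether the difference was already present at 12 months. With limma 0 of 10 genes passed, where 0.161% of all items were called higher. Psmb8 had the lowest adjusted p (0.4 ± 0.11, limma adjusted p = 0.408), and the largest difference was that of Tap2 (0.41 ± 0.15). Tap1, Psmb9 and B2m differed by 0.33 ± 0.22, 0.32 ± 0.13 and 0.24 ± 0.1. At an unadjusted p under 0.05 there were 6 genes with a higher mean (B2m, Tap2, Tapbp, Psmb8, Psmb9 and Psme2), against 3.73% of all items. All 3 middle-aged animals lay above all 3 young ones in 5 genes (B2m, Tapbp, Psmb8, Psmb9 and Psme2), against 6.74% of all items. Psmb10 (0.04 ± 0.08) and Fcgrt (-0.03 ± 0.15) had differences close to 0, and the sign of each turned without 1 animal.

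On slide 1, where 1 middle-aged animal sat beside the 3 young, Psmb8 differed by 0.43, Psmb9 by 0.37, Tap2 by 0.2, B2m by 0.14 and Tap1 by 0.6. On slide 3, with 1 animal of each age, the same genes differed by 0.33, 0.21, 0.16, 0.05 and -0.22. With slide as a block the differences were 0.4 for Psmb8, 0.36 for Psmb9, 0.34 for Tap2, 0.19 for B2m and 0.23 for Tap1, and 0 of 10 genes passed.

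Aged against middle-aged animals covered the later interval. By limma 0 of 10 genes passed, where 0.0118% of all items were called higher. Psmb9 had the lowest adjusted p (0.44 ± 0.13, limma adjusted p = 0.32), followed by B2m (0.29 ± 0.1, adjusted p = 0.371) and Psmb8 (0.32 ± 0.11, adjusted p = 0.398). Tap2 differed by 0.35 ± 0.15 and Psmb10 by 0.22 ± 0.08. These 5 genes had an unadjusted p under 0.05, against 7.59% of all items with a higher mean. All aged animals lay above all middle-aged ones in these 5 and in Psme2, 6 of 10 genes, against 10.4% of all items. On slide 2, with 2 animals of each age, Psmb9 differed by 0.54, Psmb8 by 0.37, B2m and Tap2 by 0.19 each and Psmb10 by 0.11, and on slide 3 by 0.45, 0.32, 0.45, 0.46 and 0.4.

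Across all 3 ages, 4 of 10 genes (B2m, Psmb8, Psmb9 and Psme2) rose in order with no overlap between neighbouring ages, a pattern found in 1.2% of all items. In B2m and Psme2 the highest middle-aged and lowest aged animals nearly met (6.21 and 6.22, and 2.77 and 2.79). Arrays of the same animal differed by a median of 0.04 over the 10 genes. On both tag probes of B2m the middle-aged and aged animals overlapped. The moderated F test in limma, which asks whether any age differs, called 1.15% of all items and 1 of the 10 genes, Psmb8 (adjusted p = 0.0495). Psmb9 followed at an adjusted p of 0.0635, B2m at 0.0827 and Tap2 at 0.111. The call of Psmb8 by this test was lost without any 1 of the 9 animals. The 3 comparisons share animals, so their counts are not independent of each other.

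Among the other genes of the pathway, few passed in the aged animals. Of 31 class I heavy chain and class I-like genes 24 were tested and the other 7 were not well above background. Their median difference was 0.29, 21 had a higher mean in the aged animals and 3 a lower one, 1 rose, 0 fell and 23 did not pass. At an unadjusted p under 0.05, 16 were higher and 0 lower. The gene that rose was RT1-Aw2, a class I heavy chain, by 0.37 ± 0.08 (limma adjusted p = 0.048). Its young animals lay between 2.42 and 2.56 and its aged animals between 2.78 and 2.96. The call was lost with slide as a block (0.32 ± 0.09, adjusted p = 0.167) and without any 1 of the 9 animals. RT1 genes resemble each other closely and their probes may cross-react, so the 24 are not separate measurements.

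Of 15 genes of peptide trimming and of the loading machinery outside the 10, such as the chaperone Calr (0.09 ± 0.14) and the trimming peptidase Erap1 (0.17 ± 0.07), 0 rose and 0 fell by limma (3 higher and 0 lower at an unadjusted p under 0.05), with a median difference of 0.01. The tapasin relative Tapbpl had the largest difference of the list (0.54 ± 0.16, limma adjusted p = 0.145). Of 17 regulators 13 were tested and 1 rose, with a median of 0.13: Ifngr1, a chain of the interferon-gamma receptor, by 0.38 ± 0.08 (limma adjusted p = 0.0422). At an unadjusted p under 0.05, 4 of the 13 were higher and 0 lower. Ifngr1 was 0.42 ± 0.14 with slide as a block and did not pass (adjusted p = 0.233), and it lost its call without 8 of the 9 animals. The interferon-driven transcription factor Irf1 (0.17 ± 0.14) did not pass (limma adjusted p = 0.624). For Nlrc5, the class I transactivator, no probe was matched. In both other comparisons 0 genes of these 4 lists passed in limma. At an unadjusted p under 0.05, 11 class I heavy chain genes and 1 regulator were higher in middle-aged than young animals, and 2 loading genes and 3 regulators were higher in aged than middle-aged animals.

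Markers of other cells moved with the 10 genes. Of 20 microglial markers 17 were tested, 11 rose, 0 fell and 6 did not pass, with a median difference of 0.73. Their summed level (on the linear scale, in units of the array's 75th percentile) ran from 61.5 to 69.2 among young, from 89.2 to 109.0 among middle-aged and from 118.0 to 137.0 among aged animals. Those that rose included Aif1, Cx3cr1, P2ry12, Trem2, Tyrobp, C1qa, C1qb, C1qc, Ptprc and Laptm5, and 2 of these, Trem2 and Tyrobp, had already risen in the middle-aged animals. The microglial receptor gene P2ry12 rose by 1.19 ± 0.11 (limma adjusted p = 0.00211) and Trem2 by 1.82 ± 0.12 (0.000432). Of 19 lymphocyte markers 8 were tested, and Cd6, a surface glycoprotein of T cells, rose by 1.25 ± 0.14 (limma adjusted p = 0.00373). Cd4 and Prf1 were higher in the aged animals as well (adjusted p = 0.00409 and 0.0207), but both were well above background on 0 of 4 young arrays and on 4 of 4 aged ones, and Gzma on 1 and 4. These 3 genes were tested only because of the older groups, so the number of risen markers is not read as support. The T cell genes Cd3d, Cd3g and Cd8b were measured on every array and differed by 0.14 ± 0.1, 0.29 ± 0.15 and 0.33 ± 0.09 without passing (limma adjusted p = 0.537, 0.385 and 0.132), while Cd3e, Cd8a and the B cell gene Ms4a1 were not well above background on all arrays of any age. The summed level of the 8 ran from 0.996 to 1.18 among young, from 1.51 to 1.84 among middle-aged and from 1.99 to 2.25 among aged animals, and Cd6 made up 83.6% of its increase from young to aged. Without Cd6 the sum ran from 0.444 to 0.491, from 0.502 to 0.543 and from 0.604 to 0.666. Both sums include Cd4, Gzma and Prf1, which were tested only because of the older groups, so neither sum is read as support.

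Of 11 markers of perivascular macrophages and blood leukocytes 7 were tested and 2 rose (Lyve1 and Pf4), with summed levels of 3.14 to 4.67, 3.97 to 4.68 and 5.62 to 6.79. The lysozyme gene Lyz2 made up 73.7% of that increase. Of the 7, F13a1 and S100a8 were each well above background on 1 of 4 young arrays and on 4 of 4 aged ones. These 2 were tested only because of the older groups, so the summed level is not read as support. With slide as a block C1qa, C1qc, Prf1 and Pf4 did not pass (limma adjusted p = 0.104, 0.0626, 0.172 and 0.0895), and calls were lost without 7, 3, 3 and 8 of the 9 animals in turn, and without 5 for Cx3cr1. The part of these cells in the differences of the 10 genes was not tested.

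Of 12 endothelial markers 0 passed in limma (1 higher and 1 lower at an unadjusted p under 0.05), and their median difference was -0.02. Of 4 red blood cell genes tested 0 passed in limma and 4 were higher at an unadjusted p under 0.05. Their summed level ran from 69.1 to 99.2 among young, from 73.6 to 77.9 among middle-aged and from 109.0 to 158.0 among aged animals, of which the globin gene Hbb-b1 made up 89.8% of the increase from young to aged, and their part was not tested either. Of 24 interferon-stimulated genes tested outside the 10, 1 rose (Lgals3bp, 0.66 ± 0.12, limma adjusted p = 0.0321), 0 fell and 23 did not pass, with a median difference of 0.31. At an unadjusted p under 0.05, 11 of the 24 were higher and 1 was lower. The call of Lgals3bp was lost with slide as a block (adjusted p = 0.0553) and without 8 of the 9 animals. Of 7 RVLM neuron markers 0 passed in limma (2 lower and 0 higher at an unadjusted p under 0.05), with a median of -0.29.

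The genes whose levels were most like the mean of the 10 were found by Pearson's r over the 9 animals among the other 14102 named genes. The first 5 were Alox5ap, which serves leukotriene synthesis (r = 0.98), the annexin Anxa3 (0.98), the Fc receptor Fcgr2a (0.98), the carbohydrate-sensing factor Mlxipl (0.98) and the death receptor Fas (0.97). In the aged animals these differed from the young by 0.87, 0.83, 0.68, 0.61 and 0.52, and the first 4 passed in limma (adjusted p = 0.0199, 0.00788, 0.0367 and 0.0388). They were picked for following a mean that was itself higher in the aged animals, so these differences are no separate result. After the mean of each age was subtracted, the first 5 were other genes: Sstr2 (0.98), Gja5 (0.98), Slc36a4 (0.98), Dhrs7c (0.97) and Slc17a8 (0.96), and 0 of these passed between aged and young. The points share arrays and slides, and with 9 animals and 14102 genes values of r this high say little about a single gene.

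Interferon is known to act on this gene family through response elements near the start site. The promoter windows of RefSeq (rat build GRCr8, 250 bases before to 50 after the start) were searched on both strands. All 10 genes had a window. The core of the interferon-stimulated response element was searched as GAAANNGAA and its reverse TTCNNTTTC. It was found in 8 of 10 genes (all but Psmb9 and Psme1), in 3 of 13 constitutive core subunits (Psma4, Psmb2 and Psmb3) and in 9.71% of all 33469 windows. The matches are shown with the 9 matched bases in capitals, read 5′ to 3′ in the direction of the gene, and for a gene with several the match nearest the start is given.
Tap2, chr20:4652317-4652349, minus strand: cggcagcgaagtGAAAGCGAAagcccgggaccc
Psmb8, chr20:4657014-4657046, minus strand: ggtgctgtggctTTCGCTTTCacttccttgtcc
Tap1, chr20:4668643-4668675, minus strand: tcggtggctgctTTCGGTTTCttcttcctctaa
B2m, chr3:129549168-129549200, plus strand: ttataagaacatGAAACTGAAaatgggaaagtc
Tapbp, chr20:4967877-4967909, minus strand: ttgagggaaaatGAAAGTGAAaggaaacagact
Psmb10, chr19:50743289-50743321, minus strand: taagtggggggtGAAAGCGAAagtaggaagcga
Psme2, chr15:33052784-33052816, minus strand: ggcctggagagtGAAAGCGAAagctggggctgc
Fcgrt, chr1:104720049-104720081, minus strand: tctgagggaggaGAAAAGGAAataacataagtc
Psmb10 held 3 matches and Tapbp 2, and in each of these genes a pair of them overlap.

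A match was held by 8 of the 10 genes, too many to separate those that rose from the others, and its part was not tested. Of the 4 genes that rose, B2m, Tap2 and Psmb8 held a match and Psmb9 did not. Of the 6 that did not pass, Tap1, Tapbp, Psmb10, Psme2 and Fcgrt held one and Psme1 did not. In Tap2 the match began 41 bases before the start, in B2m 150 bases before it, and in Psmb8 it lay across the start. Tap1 and Psmb9 are transcribed away from each other with 456 bases between their starts, so the match in the Tap1 window lies between both genes, outside the window of Psmb9. The STAT element TTCNNNGAA was found in 2 of 10 genes (Psmb8 and Fcgrt) and in 8.87% of all windows, and the kappaB-like motif GGGNNTTCC (reverse GGAANNCCC) in 0 of 10 and in 5.92%. A match describes letters and is no evidence of binding, and no match says only that these letters are not in this window.

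**Figure D4:**
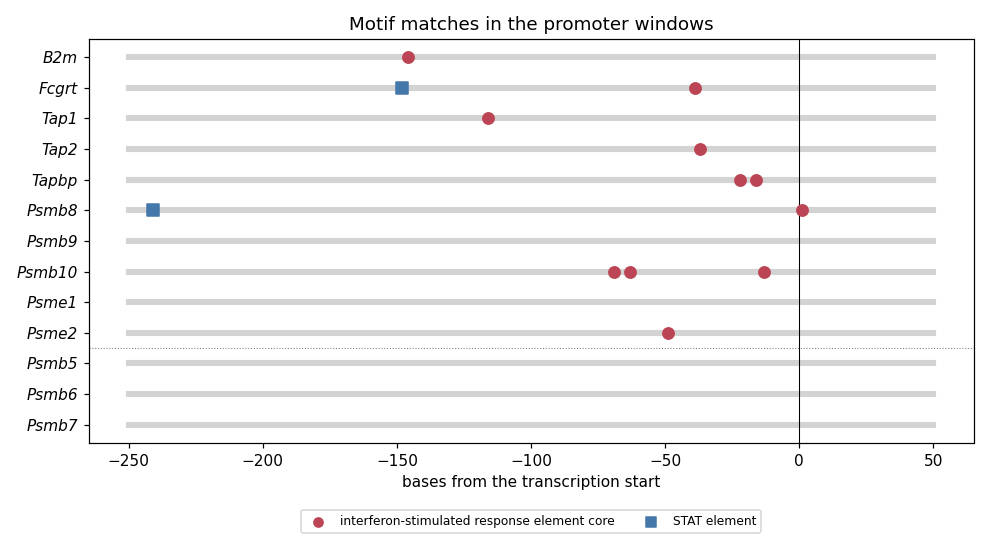
Positions of motif matches (bases from the transcription start, negative before it) in the promoter windows of the 10 genes and, below the dotted line, of the 3 constitutive partners; circles are the interferon-stimulated response element core and squares the STAT element. The core is found in 8 of the 10 genes, beginning 150 to 3 bases before the start, and not in Psmb5, Psmb6 or Psmb7.

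**Figure D5:**
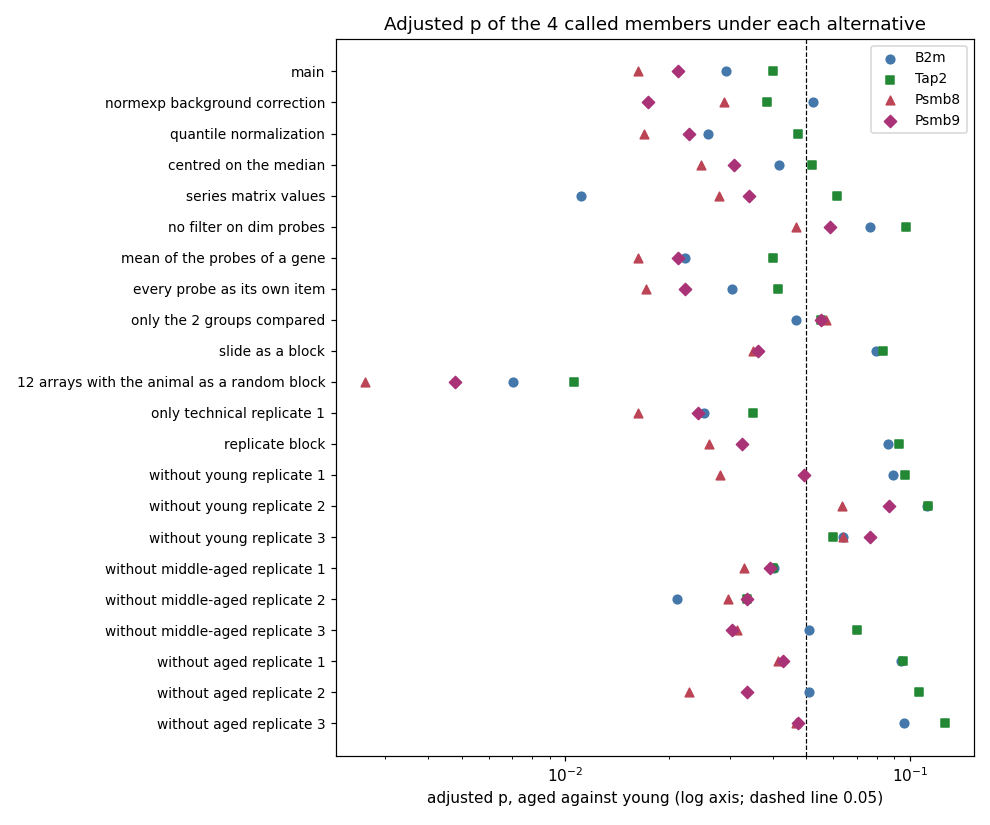
Adjusted p (log axis) of B2m, Tap2, Psmb8 and Psmb9 for aged against young animals in the analysis reported above (labelled main) and under 21 alternative settings, with a dashed line at 0.05. Psmb8 stays left of the line in 18 of the 21 alternatives, Psmb9 in 17, B2m in 10 and Tap2 in 8.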

How the data were processed

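RNA of 9 rats was measured on 12 Agilent one-colour arrays. The authors extracted spots using Agilent Feature Extraction (version 9.5.1.1, per the submitters' processing notes). Their deposited files give linear intensity, and per the file headers the processed signal is background-subtracted and detrended. The other deposited columns used, per the file headers, are flags for outlier, saturated and well-above-background spots. The deposited series matrix holds a score, standardised within arrays, whose log base is not known; its differences are not log2 differences and it served as an alternative only.

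Here outlier spots were left out, log2 signals were averaged per probe, the 75th percentile of each array was subtracted, and both arrays of an animal were averaged. A probe was kept where all arrays of some group read it well above background (29797 of 41012). Each named gene took its brightest kept probe, and unnamed probes stayed single items (25445 items). Names came from RefSeq accessions first, since Tap2 is also listed as an older name of Tap1. Groups were compared with limma 3.58.1 in R 4.3.3, with p-values adjusted over all items, after a check on simulated data. Partner differences used exact permutation tests (scipy 1.17.1). Positions are those of the files (rn3) or of RefSeq (GRCr8).

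The 10 genes, the gene lists and the rule for naming genes were chosen with earlier results of these data known. The rule named all 10 genes, every pathway list gene that passed, Psmb5, Psmb6 and Psmb7, and the 5 genes most like the mean in each ranking; other genes and markers named were chosen after their values were seen. Some list genes are not reported here. Alternatives were other background corrections, scalings, filters, probe rules, slide and replicate terms, and leaving out each animal.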

Additional observations from a re-analysis of the deposited data

How the results depend on the processing

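Of the 10 genes, 4 passed between aged and young animals. This count was 2 (Psmb8 and Psmb9) with slide as a block, 1 (Psmb8) with no filter on dim probes, 1 (B2m) in a fit of only the groups compared, and 0 to 4 when animals were left out one at a time, with 0 without young replicate 2 or young replicate 3. With normexp background correction, median centring or the series matrix values it was 3. The labels do not say whether replicate numbers pair the animals. Correlations of same-numbered animals ran from -0.41 to 0.37 and were not set against those of other animals. The fit with a replicate block gave 2 calls, Psmb8 and Psmb9. The F test called 1 gene, and 0 with normexp, quantile normalization, median centring, no filter, every probe as its own item, slide as a block, the replicate block or any animal left out (0 to 0); with 12 arrays and animal as random block it called 4. Both other comparisons kept 0 calls under every alternative. In the fits, signs turned for small differences that did not pass. Psmb10 in middle-aged against young was -0.01 when blocked by slide, and -0.01 (without middle-aged replicate 2) to 0.08 with an animal left out. Fcgrt there was -0.1 to 0.06 with an animal left out, above 0 without young replicate 1 or middle-aged replicate 3. Tap1 in aged against middle-aged was 0.02 with normexp, and -0.31 to 0.13 with an animal left out (above 0 without middle-aged replicate 1 or aged replicate 3). Tapbp there was -0.04 with median centring, -0.01 with the series matrix values, and -0.01 (without middle-aged replicate 2) to 0.03 with an animal left out. In settings added after the data were seen, Psmb5 in aged against young was -0.06 with quantile normalization -0.01 with median centring, and -0.01 (without aged replicate 3) to 0.06 with an animal left out. Psmb7 there was 0.01 with normexp, 0.0 with the series matrix values, 0.09 when blocked by slide, and -0.11 to 0.04 with an animal left out (above 0 without young replicate 2, aged replicate 1 or aged replicate 2). On slide 3 alone, which has 1 animal an age, Psmb10 minus Psmb7 fell from 0.29 to 0.0. The signals of the 10 genes were all well above background, so 3 animals a group limit the precision.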
